A study of Mus musculus with 311 samples.

Results

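The mitochondrial ribosomal protein genes studied here are the genes whose symbol starts with Mrpl or Mrps followed by a number, with 1 gene left out by the rule of selection. Each gene was read from 1 probe that had a value on at least 95% of the arrays, and 28 genes of the 11387 read in this way were members. Of the 29 symbols of the rule that the array held, Mrpl4 fell just outside the limit on missing values, with values on 286 arrays (92.0%), and Mrpl12 lay just inside it, with 296 arrays (95.2%). Names that the platform gave in upper case were not matched, so that MRPL42 was counted among genes that were no members. Mrpl4 had a lowest log10 ratio of -0.219, a median of 0.0255, a highest of 0.216, and an SD of 0.980 times that of the median gene. The members comprised 19 proteins of the large subunit (Mrpl) and 9 of the small subunit (Mrps). By their family names 17 have a counterpart in the bacterial ribosome and 11 do not.

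Mitochondria keep a small genome of their own, and the mitochondrial ribosome translates its messages into core subunits of the respiratory chain and of ATP synthase. Its RNA comes from the mitochondrial genome, whereas all of its proteins are encoded in the nucleus, made in the cytosol and imported. The liver is rich in mitochondria, and nuclear factors such as Nrf1, Gabpa and Yy1, with the coactivators Ppargc1a, Ppargc1b and Pprc1, are known to drive genes of this kind.

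The livers came from F2 animals of both sexes, bred from C57BL/6J and C3H/HeJ parents that were both ApoE null, and the mice ate a Western diet from 8 to 24 weeks of age. All animals thus shared the missing ApoE and the diet, and they formed 1 group of 311 animals with 1 array each. RNA of the animal carried Cy3, and a pool of equal amounts of all samples carried Cy5. Every value was read as a log ratio of 1 animal's transcript over the pool. Such a ratio tells how an animal differs from the average liver and nothing about how abundant a transcript is. The direction, animal over pool, was taken from the values. The base is not stated and was inferred from the values to be 10. The values lay only slightly nearer to what base 10 requires than to base e. With base e every fold change given here would be smaller, while SD multiples, r and p would stay as they are. Since values are ratios to the pool, markers could show how animals differed in other tissue but not how pure a liver was. The labels give for each animal an F2 number (2 to 359, median 186), but neither sex, genotype nor any trait, so the results describe variation over animals. In bulk liver RNA fewer cells of a type and less RNA per cell cannot be told apart. The median of an array was between -0.0218 and 0.0172, and its SD between 0.0658 and 0.206. Of 48205 pairs of arrays 127 had r under -0.3, the lowest being -0.432. The Y-chromosome gene Eif2s3y split the animals into clusters of 156 and 155, and for the named pairs of members with each other, with regulators and with their nearest genes the r within these clusters is given where the pooled r was more than 0.1 farther from 0 than in both.

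Promoters in RefSeq (GRCm38.p6) were found for 24 of the 28 members. They run from 250 bases before to 50 after the start of the gene, and 4 are shown because they hold a match to the motif of NRF1 and belong to members that went together or apart over animals (Mrpl12 with Mrps26, Mrpl39 with Mrps21). Capitals mark matches to the motifs listed after the sequences, and the rest is in lower case. Shorter spellings, such as the core CCGGAA, are not marked on their own. Mrpl39 and Mrps21 hold that core in lower case.

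Mrpl12, chr11:120484387-120484686, plus strand: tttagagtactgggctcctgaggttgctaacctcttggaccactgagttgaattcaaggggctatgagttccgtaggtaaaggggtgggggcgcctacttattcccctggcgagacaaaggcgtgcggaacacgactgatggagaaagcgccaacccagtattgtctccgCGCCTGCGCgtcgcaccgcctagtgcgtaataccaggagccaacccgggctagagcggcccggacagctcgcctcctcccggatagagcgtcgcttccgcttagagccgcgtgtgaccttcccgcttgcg

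Mrps26, chr2:130563507-130563806, plus strand: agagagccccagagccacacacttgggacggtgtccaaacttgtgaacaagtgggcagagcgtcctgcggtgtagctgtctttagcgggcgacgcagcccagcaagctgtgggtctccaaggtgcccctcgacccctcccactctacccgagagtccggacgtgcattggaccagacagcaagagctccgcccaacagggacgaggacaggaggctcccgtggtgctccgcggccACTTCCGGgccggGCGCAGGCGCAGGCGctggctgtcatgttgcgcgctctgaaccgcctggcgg

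Mrpl39, chr16:84735195-84735494, minus strand: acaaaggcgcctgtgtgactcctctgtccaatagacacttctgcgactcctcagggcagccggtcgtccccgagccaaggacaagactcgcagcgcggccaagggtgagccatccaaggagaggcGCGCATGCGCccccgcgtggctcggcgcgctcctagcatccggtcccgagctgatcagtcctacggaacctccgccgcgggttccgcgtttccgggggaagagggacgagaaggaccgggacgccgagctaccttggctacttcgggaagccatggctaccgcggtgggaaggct

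Mrps21, chr3:95871465-95871764, minus strand: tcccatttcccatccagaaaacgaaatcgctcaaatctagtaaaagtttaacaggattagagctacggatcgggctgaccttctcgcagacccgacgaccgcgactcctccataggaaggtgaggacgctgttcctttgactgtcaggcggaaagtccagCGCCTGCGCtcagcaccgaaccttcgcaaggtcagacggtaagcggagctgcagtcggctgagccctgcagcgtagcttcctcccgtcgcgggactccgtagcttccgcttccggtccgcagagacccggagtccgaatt

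In Mrpl12 and Mrps21 the capitals are a single NRF1 match on the reverse strand, first base at -80 and -90 from the start of the gene. The Mrpl39 run is a palindrome that reads as a match on both strands, at -125 and -124. In Mrps26 the first run is an ETS match at -15, and the second holds overlapping NRF1 matches at -2 and 5.

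The motif GCGCANGCG (NRF1), searched on both strands, was found in 7 of 24 member promoters (29.2%), against 6.47% of all 27025 promoters of the table and 10.1% of the 8546 promoters of genes measured here. Its holders were Mrpl10, Mrpl12, Mrpl32, Mrpl39, Mrps21, Mrps26 and Mrps9. The ETS motif CCGGAAGT of GABPA was in 3 member promoters (12.5%, all promoters 4.00%, measured genes 5.28%). Its core CCGGAA, which every CCGGAAGT also contains, was in 14 (58.3%, all promoters 15.2%, promoters of measured genes 20.3%). The YY1 motif AAGATGGCG was in Mrpl36 and Mrpl37 (8.33%, all promoters 1.49%, measured genes 2.26%). GGGGCGG (SP1) was in 9 (37.5%, all promoters 23.4%, measured genes 37.7%). For CCAATC (NFY) there were 5 promoters (20.8%, all 16.6%, measured genes 19.3%), and for CACGTG (E-box) 2 (8.33%, all 7.24%, measured genes 9.05%). For TGACGTCA (CRE) there was 1 (4.17%, all 1.88%, measured genes 2.54%) and for TATAAA 2 (8.33%, all 14.2%, measured genes 10.9%). Neither TCAAGGTCA (ERRA) nor ACTACAATT (ZNF143) was in any of the 24, and 0.407% and 0.433% of all promoters hold them. Relative to all promoters the YY1 motif, the NRF1 motif and the CCGGAA core were thus the most frequent of those given here. The YY1 motif rests on 2 promoters, and beside measured genes these contrasts were smaller. A match is a string of letters and not a site shown to be bound. The 7 members with the NRF1 motif had a mean pairwise r of 0.0394 over animals and the 14 with CCGGAA 0.0883, beside 0.0681 for all members.

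Mitochondrial ribosomal protein transcripts varied little between animals. The median SD of the members was 0.730 (SE 0.0211, 28 genes) times that of the median gene, and 26 of 28 lay below the median gene. None reached 1.5 times, a spread that 21.6% of all genes had. A small spread was not particular to the members. The respiratory chain subunits used here were those of complex I, complex IV and ATP synthase, without complexes II and III. The median multiple was 0.845 for them, 0.817 for cytosolic ribosomal proteins and 0.866 for proteasome subunits. It was 0.714 for complex I and 0.669 for assembly factors of the mitochondrial ribosome, both below the members. From the 5th to the 95th percentile of animals the median member spanned 1.44-fold, from 1.27-fold for Mrpl28 to 1.87-fold for Mrps26, and the median gene 1.61-fold.

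Mrps26, a small-subunit protein particular to mitochondria, had the largest SD (1.27 times). Its log10 ratio was -0.204 in the lowest animal, 0.0250 in the median and 0.206 in the highest. Mrpl12, the protein of the flexible stalk that recruits translation factors, followed with 1.02 times, and its values ran from -0.147 over 0.0315 to 0.208. These were the only members above the median gene.

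For Mrpl48, which has no bacterial counterpart, the multiple was 0.972 and the ratios ran from -0.247 over 0.00374 to 0.200. Mrpl16, a core protein of the large subunit, had 0.916 times the median SD, with ratios from -0.203 over 0.0225 to 0.158. Mrpl34 had 0.885 times, from -0.156 over 0.0281 to 0.159. In each of these members the lowest and the highest animal lay on opposite sides of the pool, at most 2.80-fold apart (Mrpl48).

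Mrpl28 had the smallest SD, 0.524 times that of the median gene, with a lowest ratio of -0.188, a median of 0.00904 and a highest of 0.123. Mrpl46 had 0.552 times (-0.0954, 0.0182 and 0.141), and Mrpl36, a small zinc-binding protein, 0.565 times (-0.102, 0.0149 and 0.126). Medians of all members lay between -0.00772 (Mrps21) and 0.0315 (Mrpl12), close to the pool. Small-subunit members stood at the top (Mrps26) and also near the bottom (Mrps33 with 0.584 and Mrps2 with 0.589).

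**Figure D1:**
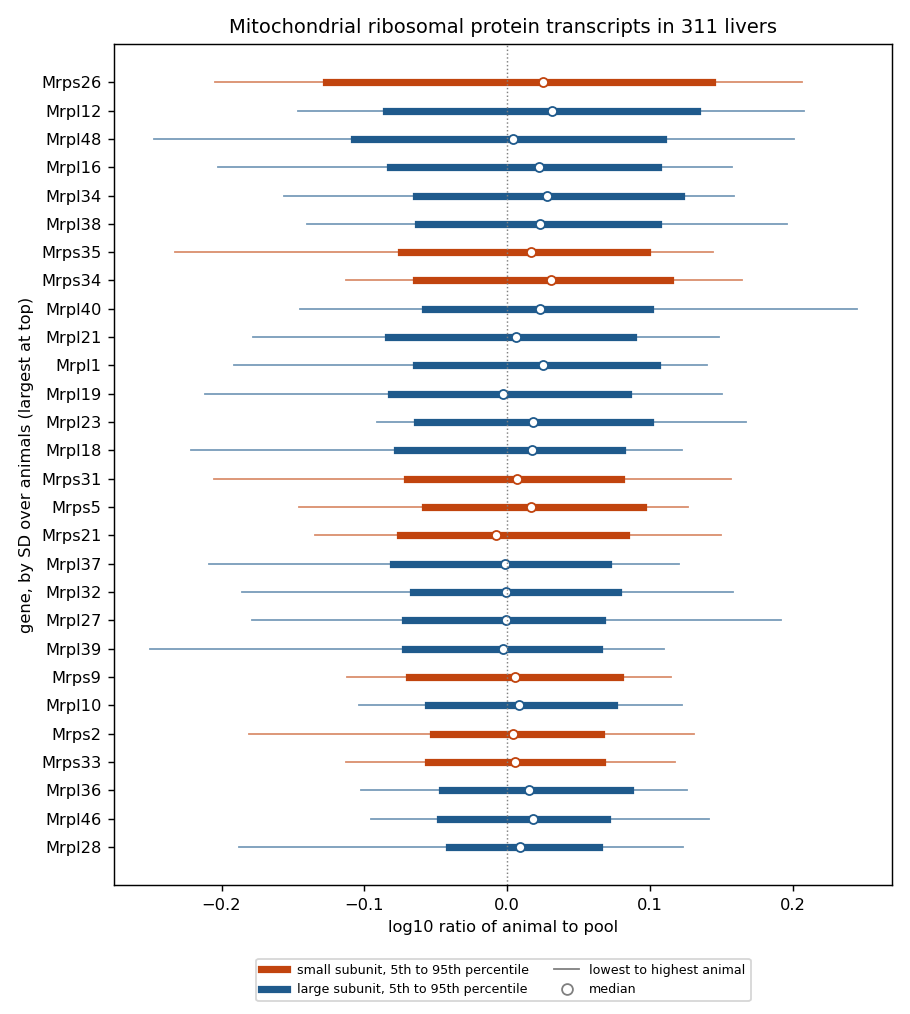
Log10 ratio of each animal to the pool (x axis) for the 28 members, ordered by SD with the largest at the top. Thin lines run from the lowest to the highest animal, thick lines from the 5th to the 95th percentile, circles are medians over up to 311 animals, and color gives the subunit; Mrps26 spans 1.87-fold and Mrpl28 1.27-fold between those percentiles.

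A transcript that an intercross sets by 1 locus can fall into 2 or 3 levels. Mixtures of normals were compared with single distributions by BIC, and a gene was called grouped when the mixture won by 10. None of the 28 members was called, against 2.34% of all genes. Mrps26 came closest, with a margin of 7.79 for a 1:2:1 mixture whose centers lay at -0.0867, 0.0153 and 0.117. Neighboring centers were 1.26-fold apart, or 2.47 times the SD within a level. The next member was Mrpl16, with a margin of 1.14.

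Mrps26 and Mrpl48 stood out by the place of the genes most like them. Among the 20 genes of largest absolute r, the median member had 1 on its own chromosome. Mrps26 had 17 on chromosome 2, which holds 7.69% of the genes, and Mrpl48 had 17 on chromosome 7, which holds 7.84%. No other member had more than 3. Both were picked out after these values had been seen, and no test was made.

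The genes of largest absolute r with Mrps26 were Aqr on chromosome 2 and Synpo2 on chromosome 3, which were themselves grouped, so that no r is given. Next came B2m, the light chain of MHC class I (r = -0.739, rho = -0.744), the zinc-finger gene Zc3h8 (r = 0.689), Polr1b of RNA polymerase I (0.682), and Slc24a5 (0.681). Cst3, the protease inhibitor cystatin C (r = -0.671), and Nfs1, the mitochondrial cysteine desulfurase (-0.645), followed, so that signs were mixed. These values were alike in both Eif2s3y clusters, for B2m -0.752 and -0.724. In measured genes, Polr1b was 15 places from Mrps26, Zc3h8 18, B2m 49 and Nfs1 128.

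For Mrpl48 they were Fam181b (r = 0.634, 31 places away), the antiviral family gene Trim12a (r = -0.623, 39 places) and Plekhb1 (r = -0.576, 2 places). Chromosome 7 genes among its 20 that were themselves grouped included Trim34a, Aqp11, Neu3, Ngrn and Trim30d. Values were larger in the lower Eif2s3y cluster, for Fam181b 0.743 against 0.507.

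Counting all measured genes that were not grouped, an absolute r of 0.4 or more with Mrps26 was seen in 6 of 50 genes within 25 places (12.0%). Between 26 and 100 places it was 9.59%, farther on chromosome 2 3.44%, and on other chromosomes 1.18%. With Mrpl48 it was 6 of 48 (12.5%), 2.76%, 0.147% and 0.0104%. Mrpl46, on the same chromosome 7, had no such gradient, with 2.13%, 2.72%, 2.21% and 1.83%.

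**Figure D2:**
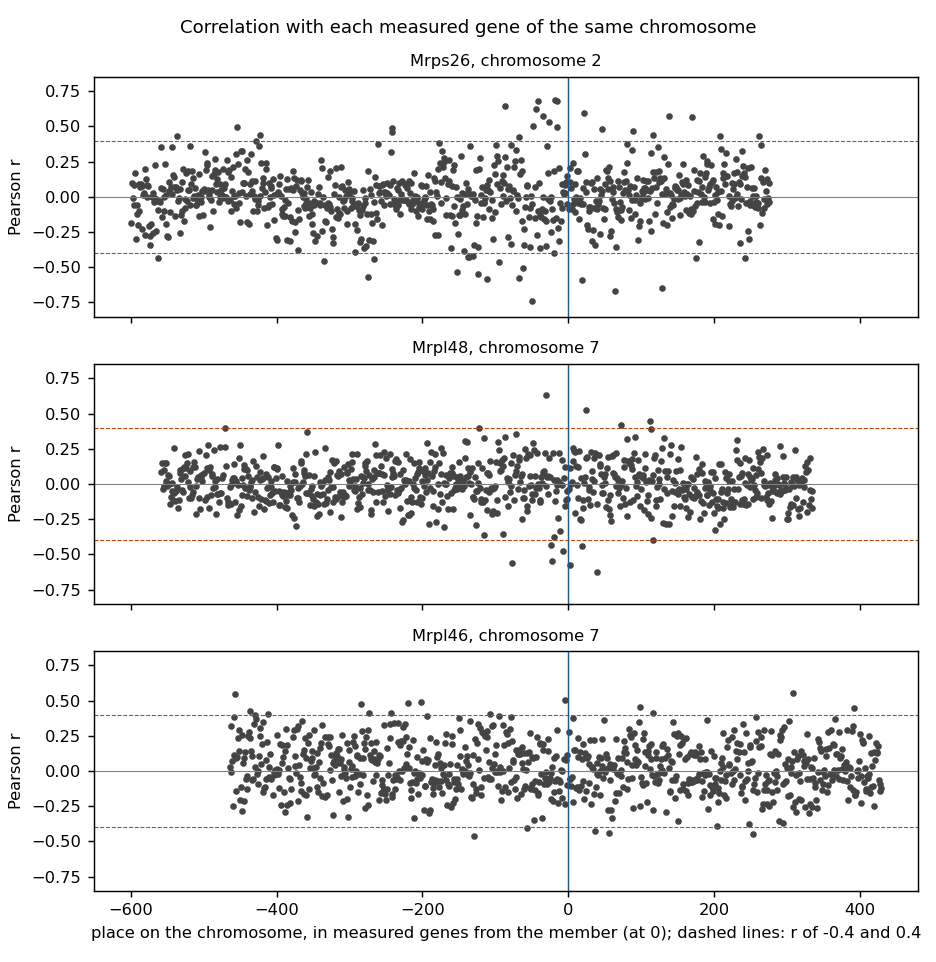
Pearson r over animals (y axis) of Mrps26, Mrpl48 and Mrpl46 with each measured, not grouped gene of the same chromosome, by place in measured genes from the member (x axis, member at 0). Within 25 places 12.0% of genes for Mrps26 and 12.5% for Mrpl48 lie beyond the dashed lines at an r of -0.4 and 0.4, and 2.13% for Mrpl46.

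Other probes of the same gene gave a check on single members, since the choice of probe did not use their values. The second probe of Mrpl23 followed the first with r = 0.846. For Mrpl48 the second probe had r = 0.781 with the probe read here, and 13 of its 20 nearest genes lay on chromosome 7. The third did not follow, with r = -0.159, and had 3 of 20 there. The probes of Mrps33 had r = 0.171.

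Mrpl27 was read from a probe that stood apart, with r of 0.181 and 0.244 with its other probes, whereas those had r = 0.871 with each other. Of the nearest genes of 1 of these others 12 of 20 lay on chromosome 11, where Mrpl27 is, the nearest being Nme1 (r = -0.706). The probe read here had none of 20 there. Its low mean r with other members (0.0261) was thus the value of 1 probe, and the other probes had 0.0608 and 0.0712.

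Members went together only weakly. Over 378 pairs the mean Pearson r was 0.0681 (SE 0.00797 over pairs, which share genes and arrays), and that of all pairs of genes was 0.00169. Positive pairs made up 64.8%, against 49.2% of all pairs. An r of 0.3 or more was found in 41 pairs (10.8%), against 4.40% of all pairs of genes, and an r of -0.3 or less in 19, against 3.46% of all pairs. Other large complexes went together more closely. The mean r was 0.209 for 35 respiratory chain subunits, 0.164 for 41 cytosolic ribosomal proteins and 0.124 for 30 proteasome subunits, with 36.3%, 26.3% and 24.6% of pairs at 0.3 or more.

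Neither subunit formed a unit of its own in these livers. The mean r was 0.0916 within the small subunit, 0.0688 within the large and 0.0625 between them. Members with a bacterial counterpart had 0.0628 among themselves and those without it 0.0558.

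By mean r with the other members Mrpl46 came first (0.176). It is a large-subunit protein particular to mitochondria. Mrpl12 had 0.134, Mrpl21 0.131, Mrps5 0.124 and Mrps31 0.107. Lowest was Mrpl10 (-0.00278), the protein that anchors Mrpl12 in the stalk, then Mrpl37 (0.000702), Mrpl16 (0.0124), Mrps26 (0.0163) and Mrpl27. Mrpl10 and Mrpl12, neighbors in the ribosome, had r = -0.336 with each other.

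The closest pair of members was Mrpl12 with Mrpl23, a protein near the exit of the peptide tunnel (r = 0.650, rho = 0.626, 296 animals, and 0.636 without the 2 animals farthest from the median). MRPL42, not counted as a member, had r = 0.684 with Mrps21. Mrpl39 and Mrps31 had r = 0.558 (rho = 0.493), or 0.467 and 0.653 in the clusters of Eif2s3y. Mrpl16 with Mrpl34 had r = 0.608 in all animals but 0.345 and 0.271 within the clusters. The most opposed pair was Mrpl16 with Mrps9 (r = -0.662, rho = -0.682), with -0.444 and -0.453 within the clusters. In both pairs with Mrpl16 the pooled r was thus farther from 0 than the r within either cluster.

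Average linkage of the members on r, done after the pairs had been seen and not tested, gave 3 blocks, and a direction within a block is fixed by that choice. The first held Mrpl1, Mrpl18, Mrpl19, Mrpl21, Mrpl32, Mrpl39, Mrpl48, Mrps21, Mrps31 and Mrps33 (mean r 0.219). The second held Mrpl10, Mrpl16, Mrpl28, Mrpl34, Mrpl36, Mrpl37, Mrpl38 and Mrps34 (0.224), and the third Mrpl12, Mrpl23, Mrpl27, Mrpl40, Mrpl46, Mrps2, Mrps26, Mrps35, Mrps5 and Mrps9 (0.213). Between blocks the mean r was -0.0183 for the first with the second, 0.0395 for the first with the third and -0.0302 for the second with the third. The blocks rest on r over all animals, and some pairs across them differed within the clusters of Eif2s3y. Mrpl34 with Mrps35 had r = -0.339 pooled but -0.0484 and 0.0487 within them. Mrpl23 with Mrpl34 had 0.0223 pooled but 0.326 and 0.334. Mrpl16 with Mrps9 stayed negative, as given above. Each block held members of both subunits.

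**Figure D3:**
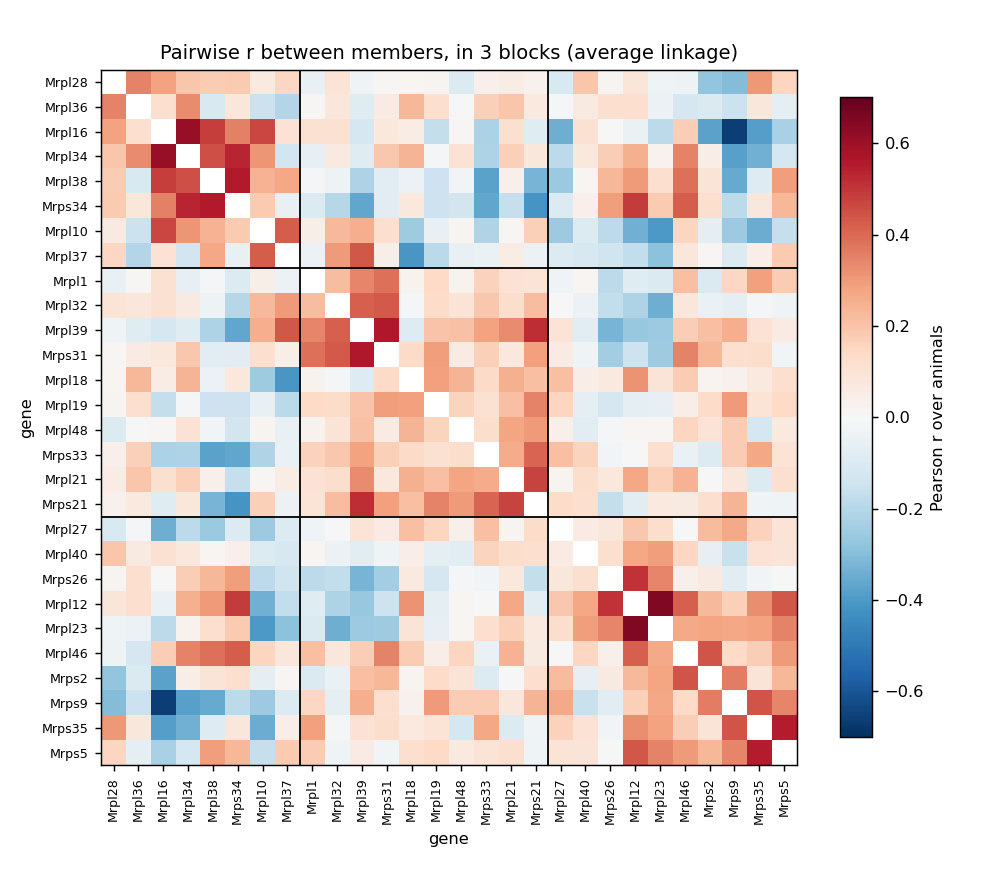
Pearson r over animals for each pair of the 28 members (color, from blue for negative to red for positive), in the order of average linkage, with black lines between the 3 blocks. The mean r is 0.219, 0.224 and 0.213 within the blocks, and between -0.0302 and 0.0395 from block to block.

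The blocks differed in the genes that went with them. The median r of 35 respiratory chain subunits was 0.460 with the mean of the first block, -0.0607 with the second and 0.110 with the third. For the 9 macrophage markers it was -0.133, -0.480 and 0.0894, and for 41 cytosolic ribosomal proteins 0.0771, -0.191 and 0.203. Members of a block differed in their nearest genes. For Mrps21 of the first block these were the tubulin cofactor Tbca (r = 0.762), Cox4i1 of complex IV (0.720) and the matrix chaperonin Hspe1 (0.718). In the same block Mrps31 had Lgals3bp (r = -0.674), Plekhg2 (-0.666) and Inpp5d (-0.663) nearest. Mrpl32 of that block had Arrb2 (r = -0.597), Hcls1 (-0.590) and Numbl (-0.581). Mrpl10 of the second block had Irak1, a kinase of innate immune signaling (r = 0.657), Mapkapk5 (0.638) and Pigq (0.628) nearest. Mrpl46 had the ubiquitin ligase Stub1 (r = 0.643), Slc5a2 (0.556) and Mtx1 of the outer membrane (0.556). The nearest gene of Mrpl16 was the melatonin receptor Mtnr1a, with r of 0.592 and 0.423 within the clusters of Eif2s3y.

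The F2 number was the only label that differed between animals, and what it records beyond a number is not given in the sources used here. limma was fitted to all genes, with Benjamini-Hochberg adjustment over all of them at 0.05. Of the 28 members 5 rose with the number (17.9%), against 12.2% of all genes, and 5 fell (17.9%), against 11.5%. With so few members these shares were not read as a difference from all genes, and as many members rose as fell.

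The falls of smallest p were those of Mrps34, a small-subunit protein, and Mrpl38. Mrps34 changed by -0.0139 (SE 0.00272) in log10 ratio per 100 numbers, or 1.03-fold (limma, adjusted p = 2.25e-05). Mrpl38 changed by -0.0142 (SE 0.00279, limma, adjusted p = 2.29e-05). These 2 members also had r = 0.557 with each other. Mrpl46 (limma, adjusted p = 0.00391), Mrps26 (0.0110) and Mrpl12 (0.0152) fell too.

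Mrps21, a counterpart of bacterial S21, rose by 0.0108 (SE 0.00251) per 100 numbers (limma, adjusted p = 0.000389). Mrps9 (0.00509), Mrpl21 (0.00892), Mrpl39 (0.0130) and Mrpl19 (0.0256) rose with the limma adjusted p given for each. All changes were small beside the range between animals, at most 1.03-fold per 100 numbers. Within the lower and within the upper part of the numbers, split at the median, Mrpl46 had adjusted p of 0.441 and 0.232 (limma), Mrps26 0.639 and 0.0978, Mrpl21 0.351 and 0.130, and Mrps9 0.226 and 0.842. Mrpl19 had 0.989 in the upper part, and 0.0575 when ranks were fitted. Mrps34, Mrpl38, Mrps21 and Mrpl39 were called in each part.

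**Figure D4:**
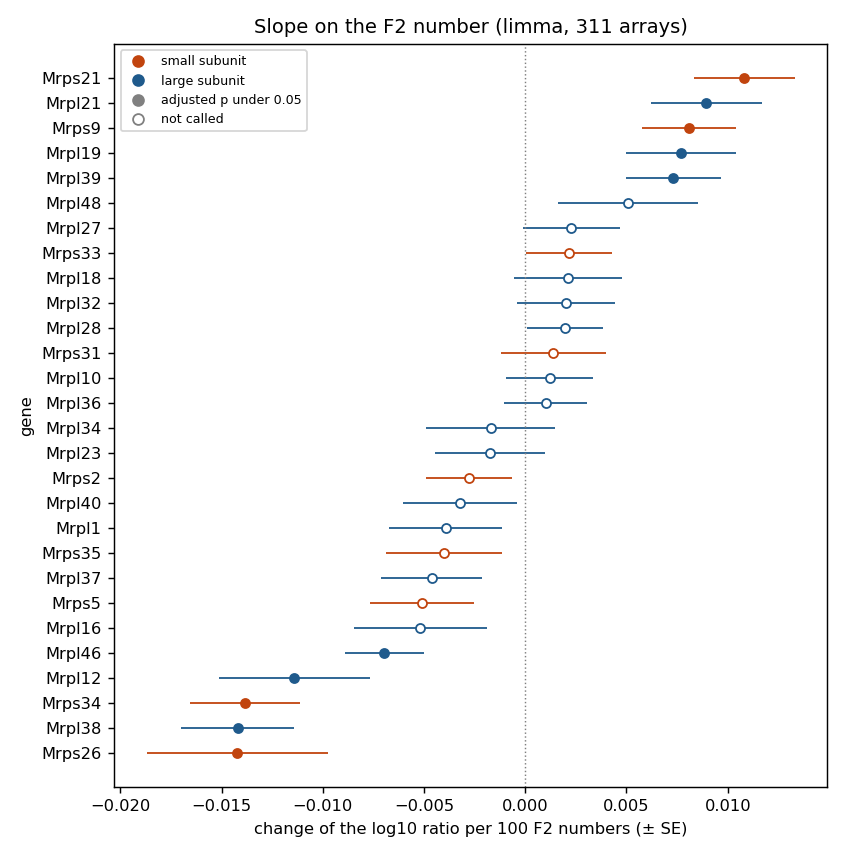
Change of the log10 ratio per 100 F2 numbers (x axis) with its SE for the 28 members, ordered by slope, fitted with limma over up to 311 arrays. Filled circles have an adjusted p under 0.05 over all genes, open circles do not, and color gives the subunit; 5 members rose and 5 fell, with the steepest slopes near -0.0142 and 0.0108.

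Each known regulator in turn was used as the covariate of a limma fit over all 11386 other genes (adjusted p under 0.05). All these relations share arrays and the pool, and the regulators are themselves only transcript ratios. The count of members is read against the share of all genes called in the same direction. All counts are over the pooled animals and were not made within the clusters of Eif2s3y. Over the 15 regulators there were 80 rising relations of 420 (19.0%, all genes 18.3%) and 93 falling (22.1%, all genes 16.8%).

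Among factors that act on mitochondrial genes directly, Nrf1 had 3 members rising (background 10.0%) and 4 falling (background 7.47%). Gabpa had 3 rising (background 14.3%) and 9 falling, 32.1% of members against a background of 12.8%. Mrpl12 fell most clearly with Gabpa (r = -0.430, limma, adjusted p = 2.92e-12). For its partner Gabpb1 4 rose (background 12.2%) and 3 fell (background 11.1%), and for Yy1 4 rose (background 7.70%) and 2 fell (background 7.30%). Sp1 had 4 rising (background 20.9%) and 8 falling (background 19.3%).

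For the coactivators members were called in both directions, as were all genes. Ppargc1a, which is induced by fasting and drives mitochondrial biogenesis, had 10 members rising (35.7%, background 25.9%) and 9 falling (32.1%, background 24.7%). Mrps9 rose with it (r = 0.533, limma, adjusted p = 2.74e-22) and Mrpl16 fell (r = -0.518, limma, adjusted p = 5.49e-21). Within the clusters of Eif2s3y these were 0.273 and 0.348 for Mrps9, and -0.226 and -0.176 for Mrpl16. Of the members counted as falling, Mrpl34 had r = -0.256 in all animals but 0.148 and 0.105 within the clusters. Mrpl38 had -0.130 but 0.148 and 0.0649. Mrpl23, counted as rising, had 0.223 but 0.0916 and -0.0481. The other called members kept their sign in both clusters. Ppargc1b had 9 rising (background 24.2%) and 6 falling (background 21.5%), led by Mrps5 (r = 0.573). With Pprc1 7 rose (background 24.7%) and 9 fell (background 23.1%), Mrps31 most (r = -0.535).

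The nuclear receptor Esrra, a partner of these coactivators, had 11 members rising, 39.3% against a background of 25.1%, and 4 falling (background 21.1%). Mrps35 led, with r = 0.452. Ppara, the receptor for fatty acids, had 6 rising (background 21.4%) and 4 falling (background 20.9%), with Mrps34 at r = 0.501 and Mrpl21 at r = -0.569.

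Myc, which drives cytosolic ribosome production, had 0 members rising (background 11.4%) and 7 falling (25.0%, background 10.4%). At an unadjusted p under 0.05 in limma 1 member rose with Myc. Creb1 had 0 rising (background 20.3%) and 10 falling (35.7%, background 21.4%), Mrps5 most (r = -0.421), and 1 rose at an unadjusted p under 0.05 in limma.

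Of the factors of the mitochondrial stress response, Atf4 had 9 rising (32.1%, background 18.3%) and 8 falling (28.6%, background 15.2%). Atf5 had 7 rising (25.0%, background 14.5%) and 2 falling (background 13.1%), and Ddit3 3 rising (background 22.9%) and 8 falling (28.6%, background 22.4%). Mrpl12 rose with Atf4 (r = 0.366, limma, adjusted p = 2.85e-09) and Mrpl34 with Atf5 (r = 0.352, limma, adjusted p = 2.88e-08).

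Members were also used as covariates. Mrpl46 and Mrpl10 were chosen for their mean r, so that their counts are descriptions. With Mrpl46 18 of 27 others rose (66.7%, background 25.0%) and 0 fell (background 22.1%), or 1 at an unadjusted p under 0.05 in limma. With Mrpl10 9 rose (background 23.8%) and 10 fell (background 24.0%). With Mrps26 5 rose (background 16.4%) and 7 fell (background 14.9%). Mrpl48, taken up after its nearest genes were seen, had 7 rising (background 11.9%) and 0 falling (background 8.72%), or 2 at an unadjusted p under 0.05 in limma.

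The mean of the standardized members gave each animal a score, whose SD was 0.319, beside 0.189 for independent members. It ran from -1.21 over 0.00841 to 0.881. Its r with the array median was 0.417, or 0.179 after each array had been centered on its median, and its r with the array SD was -0.0875 and with the F2 number -0.0436. The part of the array median in the correlates was not tested beyond the centered values given with them. Among genes that were no members 4.82% had an r of 0.3 or more with the score and 6.79% an r of -0.3 or less.

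The gene closest to the score was Lamtor4, of the lysosomal complex that senses nutrients (r = 0.602, 0.578 after centering), and it was positive with 24 of the 28 members. Ddt, a tautomerase, had r = 0.575. The mitochondrial nuclease Endog (0.553), the matrix protease Clpp (0.551) and the import protein Mtx1 (0.549) came next. Mcee, the epimerase of propionate breakdown, had 0.547, the sulfurtransferase Mpst 0.546 and the mitochondrial nucleotide hydrolase Hint2 0.537.

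The other genes of the 15 were Ndufb7 (0.537) and Ndufb11 (0.516) of complex I, the sodium channel gene Scn11a (0.535), Ggact (0.531), the glyoxalase Hagh (0.526), the cytosolic ribosomal gene Rps25 (0.521) and the selenoprotein Msrb1 (0.519). After centering these 15 had r between 0.458 (Rps25) and 0.578 (Lamtor4).

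Genes opposed to the score were led by those of macrophages and other leukocytes. Msr1, the macrophage scavenger receptor, had r = -0.634 (rho = -0.667, -0.564 after centering) and was positive with 1 of 28 members. Cybb of the phagocyte oxidase had -0.598, the endotoxin co-receptor Cd14 -0.575 and the leukocyte phosphatase Ptprc -0.573. Prkcd (-0.552), Abi2 (-0.551), Golm1 (-0.549), Plek (-0.546), Far1 (-0.544) and Pdgfra (-0.533), a receptor of stellate cells and fibroblasts, followed. All kept an r of -0.479 or below after centering.

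Among gene lists ATP synthase lay highest, with a median r of 0.418 over 7 genes (Atp5k 0.491). Complex IV had 0.290 over 14 genes (Cox5b 0.456) and complex I 0.249 over 14. These 35 genes, with none of complexes II and III, stand here for the respiratory chain. Their median was 0.288, with 15 of 35 at 0.3 or more. Genes of mitochondrial DNA upkeep and transcription had 0.205 over 9 (Polg 0.336), protein import 0.175 over 13 (Timm8b 0.415), and the proteasome 0.130 over 30.

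Genes closest to the ribosome by function were less alike. Assembly factors had a median r of 0.107 over 9 genes (Ybey, an endoribonuclease, 0.403 and Ngrn 0.326), tRNA synthetases of mitochondria 0.0779 over 7 (Sars2 0.323) and translation factors 0.0687 over 4 (Gfm1, elongation factor G, 0.217). Dap3, a ribosomal protein outside the naming scheme, had 0.127. Cytosolic ribosomal proteins had 0.0995 over 41, the citric acid cycle 0.0783 over 8, chaperones and proteases 0.0582 over 13, the 15 regulators -0.0626, and all genes 0.0198.

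Macrophage and stellate cell markers went against the score. Of 9 macrophage markers 5 had r of -0.3 or less, with a median of -0.344 and a range from -0.486 (Ctss) to 0.00214 (Clec4f, particular to Kupffer cells). Of 6 stellate markers 3 had r of -0.3 or less, with a median of -0.247 (Lox -0.503, Col1a1 0.127). The 4 hepatocyte markers had a median of 0.185, pancreas 0.0554 over 7, muscle 0.0608 over 7, red cells -0.00391 over 5, lymphocytes -0.0680 over 6 and fat 0.213 over 3. Pancreas, muscle, red cell and lymphocyte markers had no gene past 0.3 in either direction. A fit on Cd68, chosen after these values, had 12 members falling (42.9%, background 25.8%) and 1, Mrpl23, rising (background 22.6%). Mrps31 fell most (r = -0.411, limma, adjusted p = 8.31e-13), then Mrpl34 (r = -0.390, but -0.187 and -0.170 within the clusters of Eif2s3y). The r of Mrpl23 was 0.143 in all animals, and -0.0619 and 0.0423 within the clusters. The part of these cells in the members' variation was not tested.

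**Figure D5:**
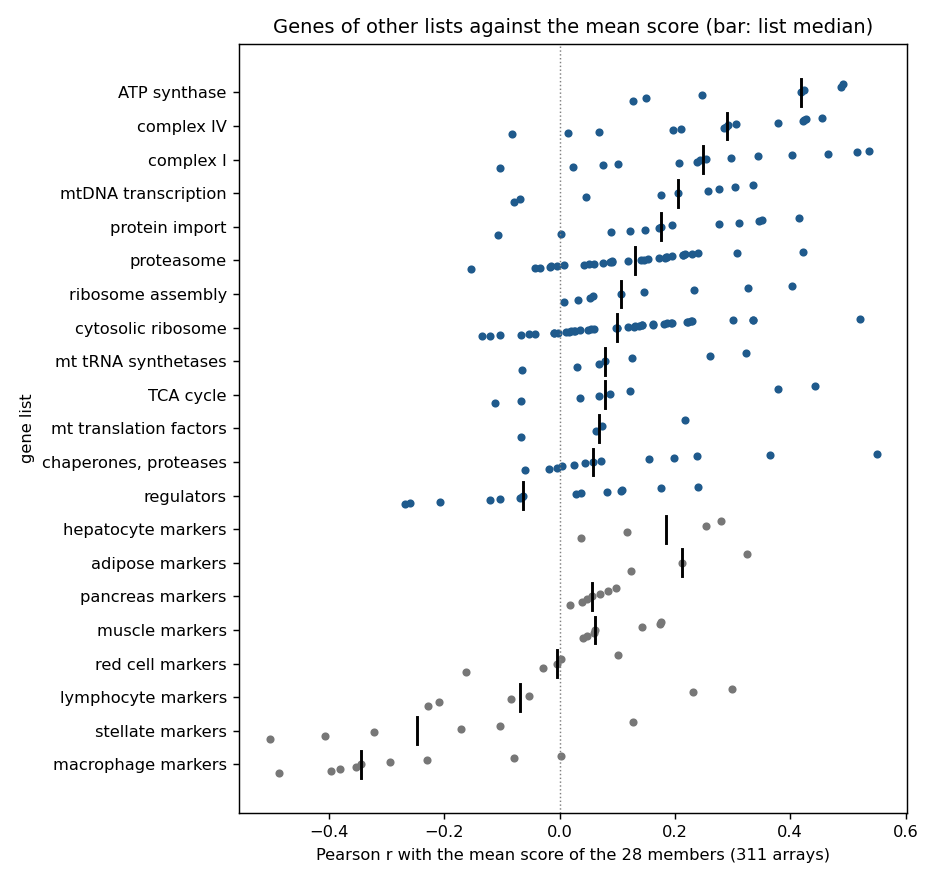
Pearson r over 311 animals (x axis) between the mean score of the 28 members and each gene of 21 lists (points, blue for functional lists and grey for cell type markers), with a bar at the median of each list. The median is highest for ATP synthase (0.418) and lowest for macrophage markers (-0.344).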

How the data were processed

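Liver RNA of 311 F2 animals, in 1 group, was read as deposited log ratios, taken to be log10 of animal over pool. The labels give the dyes, Cy3 for the animal and Cy5 for the pool. The authors' normalization is not given in the sources used here, and values were limited to -2 and 2, a limit no member reached. The base and sign were taken from the values: the slope of gene means on variances was -0.851, where a pool of all samples requires -1.15 for log10, -0.500 for natural logs and -0.347 for log2. Because the labels state the dyes, the same direction was used for all arrays. There are no read counts here, so precision rests on the number of arrays. Nothing says whether samples were processed apart, so p-values measure the spread between these animals. For 1 sample the title and source differ in F2 number, and the title was used.

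Of 23388 probes 13645 named 1 gene, 48 several and 9695 none. Symbols were updated through a RefSeq table (GRCm38.p6, for names, chromosomes and gene order), 12653 by Entrez ID, 4 by accession, 214 by symbol and 93 by synonym, and 681 kept the platform's name. The probe with the fewest gaps stood for its gene, the first at ties. Members and lists were chosen with earlier results of these data known.

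limma 3.58.1 (R 4.3.3) was fitted over all genes, tested on simulated data beforehand. Correlations and mixtures were computed with numpy 2.4.6, pandas 2.3.3, scipy 1.17.1 and numba 0.67.0 under Python 3.11.15, and plots with matplotlib 3.10.9. Named were the members with the 5 highest and 5 lowest mean r, the 5 largest and 3 smallest SD, the 5 smallest p in each direction for the F2 number, the extreme pairs and second probes, the 3 genes nearest Mrpl46 and Mrpl10, the 15 most positive and 10 most negative correlates, and the regulators. Other genes were named after their values were seen. Alternatives were centering, other limits on missing values, parts of the arrays, other probes, ranks, removed components and other thresholds and spellings.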

Additional observations from a re-analysis of the deposited data

How the results depend on the processing

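No paired analysis was possible because all animals form 1 group. Not every direction held under the alternatives. Among those that did not were list medians near 0. The share of members falling with Mrps26 was above that of all genes in all animals, but below it above the median F2 number. Within a cluster of Eif2s3y the r of Mrpl23 with Cd68 changed sign, as did some r with Ppargc1a. Of 23 lists, red cell markers turned to 0.0314 with centered arrays and had -0.162 and 0.141 in the lower and higher Eif2s3y cluster, and in the lower cluster regulators had 0.0826 and pancreas markers -0.0398. Among values of the main results 130 stayed close to the reported ones and 33 moved. Among single genes and counts outside the main results 499 values stayed close to the reported ones, 96 moved and 10 lost their call. The mean r of members was 0.0542 with centered arrays, 0.0810 with probes on every array (21 members), 0.0505 and 0.0765 for F2 numbers up to and above the median, 0.0774 and 0.0794 with 1 and 5 components removed, and 0.0917 in the higher Eif2s3y cluster. Pairs at an r of 0.3 or more made up 6.09% with 5 components removed. In all animals without this removal 2.12% of pairs reached 0.5. The shares of all pairs of genes for these values are not given here. With probes on every array the median r with the score was 0.380 for the respiratory chain and -0.248 for macrophage markers. Of the 21 members there, 2 fell with the F2 number, and the share of all genes is not given for that setting. In the lower Eif2s3y cluster cytosolic ribosomal proteins had 0.161. The median spread was 0.707 and 0.770 for F2 numbers up to and above the median and 0.766 by the median absolute deviation, where 1 member (Mrps26) passed 1.5 times. With centered arrays, and with the most variable probe per gene, 1 member fell with Mrpl46, and no share of all genes is given for these settings. Up to the median F2 number there were 38 rising (9.38%, all genes 9.37%) and 44 falling relations to regulators (10.9%, all genes 8.26%). There 9 members rose with Mrpl46 (34.6%, all genes 12.2%), 5 with Mrpl10 (19.2%, all genes 16.4%) and 3 with Mrps26 (11.5%, all genes 9.70%), and 3 fell with Mrps26 (11.5%, all genes 9.08%). Above the median 2 fell with Mrps26 (7.41%, all genes 8.50%). Each part has fewer arrays, all genes lost calls too, and the lower part has 27 members. Other motif spellings gave 3 promoters for NRF1 (GCATGCG, shorter but with the free base set to T, 12.5%, all promoters 3.64%). They gave 14 for GABPA (CCGGAA, 58.3%, all 15.2%), 3 for YY1 (12.5%, all 2.88%) and 2 for ZNF143 (8.33%, all 3.45%). For ERRA there were 3 (12.5%, all 4.66%), for SP1 12 (50%, all 35.9%) and for NFY 9 (37.5%, all 37.9%). CRE had 2 (8.33%, all 7.64%), TATA 2 (8.33%, all 25.5%), and the E-box with a free base (CACGNG) 10 (41.7%, all 27.7%). Relations to regulators were not totalled for probes on every array, since only 8 regulators have them. The Cd68 and Mrpl48 fits, the blocks and the counts by place were added after seeing the data.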

Other observations

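Some members went closely with genes of other complexes, and these were named after their values were seen. Mrpl12 and Mrpl23 had the cytosolic ribosomal gene Fau in common among their nearest genes (r = 0.715 and 0.782), and the second probe of Mrpl23 had it nearest too (r = 0.682). Mrpl23 also went with Pfdn5, a subunit of the chaperone prefoldin (r = 0.731). Mrpl39 went with the proteasome genes Psmb3 (r = 0.727) and Psmb7 (0.703), and against Myh9, a nonmuscle myosin (-0.733).

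Mrps5 and Mrps35 shared Scrn2 (r = 0.697 and 0.730, and for Mrps35 0.643 in each cluster of Eif2s3y). Mrps35 went with Klb, the co-receptor of a fasting hormone (0.700), and against the folate enzyme Mthfd2 (-0.699). Within the clusters of Eif2s3y these were 0.470 and 0.546 for Klb, and -0.491 and -0.560 for Mthfd2. Mrps9 went with the mitochondrial deacetylase Sirt3 (r = 0.721) and against the insulin-degrading enzyme Ide (-0.735, or -0.594 and -0.552 within the clusters). Mrpl28 had the matrix protease Clpp nearest (r = 0.598). Mrps34 had Znhit2 nearest (r = 0.782) and Mrpl38 Alg3 (0.753).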
